A study of Mus musculus with 6 samples.

Results

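The endothelial genes described here were 10 of the 23873 gene rows of the deposited table, chosen by symbol. Pecam1, Cdh5, Kdr, Flt1, Tie1, Tek and Eng stand for endothelium in general, Ehd3 and Emcn for glomerular capillaries, and Plvap for peritubular capillaries. The libraries hold kidney RNA of mice at 8 weeks of age, in 2 groups of 3. The NICD2_Pax8 group carried 1 copy of R26NICD2, by its name a Rosa26 allele for the active, intracellular part of Notch2, together with a Pax8-Cre by its genotype label, whereas the title of the series names a Pax-rtTA driver. The WT group is labelled wild type, but its library titles also begin with NICD, so the sources used here do not settle whether it carried the allele without the driver. Pax8 is a transcription factor of renal tubule epithelium, so a Pax8 driver addresses tubule cells and not the vessels read here. The labels do not state whether the libraries of a group came from separate animals, and p-values therefore measure the spread between libraries only.

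Endothelial cells line every vessel of the kidney and take different forms along it. Glomerular capillaries are perforated by open fenestrae and filter plasma together with the podocytes, whereas the fenestrae of peritubular capillaries are closed by diaphragms built from the protein of Plvap and take up what the tubules reabsorb. Both beds depend on VEGF-A, which podocytes and tubule cells release and which acts on the endothelial receptors encoded by Kdr and Flt1. Angiopoietins act on the receptor encoded by Tek, with Tie1 as its partner, and keep the vessels stable.

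All 10 genes had values in every library and passed the filter of 1 FPKM in at least 3 libraries. The estimated depth was 15900000 to 17600000 fragments in NICD2_Pax8 libraries and 14600000 to 15000000 in WT libraries. Ehd3 and Tie1, whose models held 1 transcript each, then rested on 246 to 667 fragments in NICD2_Pax8 libraries and on 654 to 1567 in WT libraries. The table was not scaled for library composition: the median log2 fold change over the 13500 genes tested was 0.32, and 0.03 after median-of-ratios scaling, so changes are also given after that scaling where it matters. WT replicate 1 stood apart by transcripts of tissues outside the kidney. The summed level of 12 adrenal genes was 5472 FPKM in that library, against 35.9 to 43.2 FPKM in NICD2_Pax8 libraries and 12.0 and 16.8 FPKM in the other WT libraries. The 10 genes listed for fat, which need not be made by fat cells alone, summed to 5656 FPKM in that library. They summed to 85.7 to 541.6 FPKM in NICD2_Pax8 libraries and to 217.7 and 1235 FPKM in WT replicates 3 and 2. Gpihbp1 of this list varied far less and did not pass (limma log2 fold change -0.36, adjusted p = 0.282). It had 28.6, 20.25 and 12.46 FPKM in WT replicates 1 to 3 and 14.65 to 15.29 FPKM in NICD2_Pax8 libraries. Akr1b7 and Star, of steroid-making cells, stood at 996.6 and 597.5 FPKM in WT replicate 1 and at 0.74 to 1.7 FPKM in the other 5 libraries. Fabp4 and Car3, of the fat list, were also highest in WT replicate 1, at 2139 and 1063 FPKM. Adrenal gland and fat have capillaries of their own, so results are given with and without this library where it moves them.

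Endothelial transcripts were lower in NICD2_Pax8 kidneys. By limma on log2(FPKM + 1), 9 of the 10 genes fell at an adjusted p under 0.05 and 0 rose, where 16.2% of all genes tested fell. All 10 log2 fold changes were negative, and Cdh5 did not pass. Without WT replicate 1 the count was again 9, where 15.6% of genes fell. The mean level in WT kidneys was between 1.46 and 3.5 times that in NICD2_Pax8 kidneys, and the median log2 fold change of the 10 genes was -1.12, against 0.32 over all genes tested. For 9 of the 10 genes every NICD2_Pax8 library lay below every WT library, as it did for 18.8% of all genes tested. In whole-kidney RNA, fewer endothelial cells and less of each transcript per cell cannot be told apart.

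**Figure D1:**
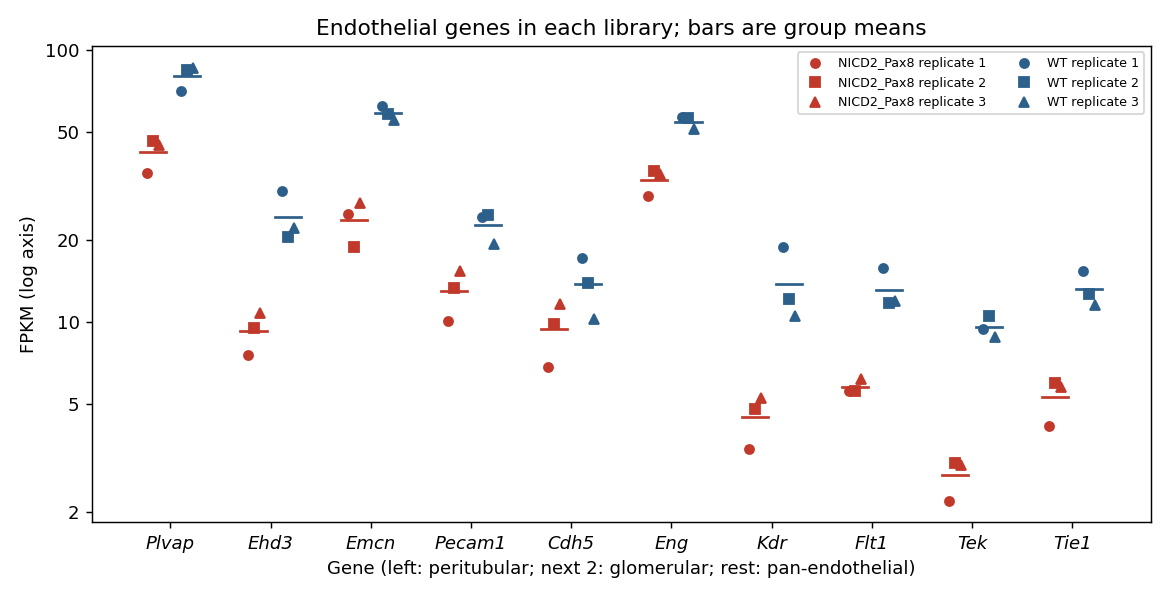
FPKM of the 10 endothelial genes (x axis) in each library on a log axis (y axis), with NICD2_Pax8 in red, WT in blue, replicates 1 to 3 as circle, square and triangle, and group means as bars. The groups are separate for every gene except Cdh5, where NICD2_Pax8 replicate 3 lies above WT replicate 3.

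Of the genes of junction proteins, Pecam1 fell and Cdh5 did not pass. Pecam1 (gene 18613, chromosome 11, 106654213 to 106715281, minus strand) encodes the adhesion protein CD31 of endothelial junctions, which platelets and leukocytes also carry. Its level was 10.1, 13.4 and 15.5 FPKM in the NICD2_Pax8 libraries, in the order of replicates 1 to 3 kept throughout, against 24.4, 24.7 and 19.4 FPKM in the WT libraries. The groups did not overlap, and the log2 fold change was -0.78 (limma SE 0.17, adjusted p = 0.00741). Cdh5 (gene 12562, chromosome 8, 104101613 to 104144504, plus strand) encodes VE-cadherin, the cadherin of endothelial adherens junctions. It had 6.85, 9.89 and 11.7 FPKM in NICD2_Pax8 libraries and 17.3, 13.99 and 10.3 FPKM in WT libraries. The highest NICD2_Pax8 library was above the lowest WT library, and the log2 fold change of -0.50 did not pass (limma SE 0.24, adjusted p = 0.107). After median-of-ratios scaling Cdh5 stood at 5.94, 8.86 and 10.4 in NICD2_Pax8 and at 18.2, 15.9 and 12.2 in WT on the scaled FPKM scale, without overlap. It then passed, at -0.82 (adjusted p = 0.0197), and all 10 genes fell, where 25.8% of all genes tested fell after that scaling. All 10 also fell with upper quartile scaling (25.1% of genes), with quantile normalization (26.4%) and with median-of-ratios scaling without WT replicate 1 (26.5%). Without scaling Cdh5 also passed once WT replicate 3 was left out, at -0.69 (adjusted p = 0.0482).

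Both VEGF receptors fell. Kdr (gene 16542, chromosome 5, 75932827 to 75979072, minus strand) encodes VEGFR2, the main signalling receptor for VEGF-A. It was at 3.41, 4.78 and 5.29 FPKM in NICD2_Pax8 libraries and at 18.9, 12.2 and 10.5 FPKM in WT libraries. WT replicate 1 was the highest, yet the lowest WT library still had more Kdr than any NICD2_Pax8 library. The log2 fold change was -1.41 (limma SE 0.24, adjusted p = 0.00219) and -1.18 without WT replicate 1. Flt1 (gene 14254, chromosome 5, 147561604 to 147726438, minus strand) encodes VEGFR1, which binds VEGF-A tightly and signals weakly, and also gives rise to a soluble form. Its values were 5.6, 5.6 and 6.2 FPKM in NICD2_Pax8 libraries and 15.9, 11.7 and 12.0 FPKM in WT libraries. The NICD2_Pax8 libraries were close to each other and all below WT, with a log2 fold change of -1.05 (limma SE 0.14, adjusted p = 0.000817). The row of Flt1 pools 7 transcripts, so the soluble form was not separated from the receptor.

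Of the Tie receptors, Tek had the largest fall among the 10 genes. Tek (gene 21687, chromosome 4, 94739086 to 94875350, plus strand) encodes Tie2, the angiopoietin receptor. It had 2.21, 3.04 and 3 FPKM in NICD2_Pax8 libraries and 9.46, 10.5 and 8.86 FPKM in WT libraries. All WT libraries were far above all NICD2_Pax8 libraries, with a log2 fold change of -1.51 (limma SE 0.14, adjusted p = 0.000199) and a ratio of WT to NICD2_Pax8 means of 3.5. Leaving out WT replicate 1 gave a ratio of 3.52. Tie1 (gene 21846, chromosome 4, 118471191 to 118489849, minus strand), which pairs with Tie2 and has no firmly established ligand of its own, had 4.14, 6 and 5.79 FPKM in NICD2_Pax8 libraries and 15.5, 12.7 and 11.6 FPKM in WT libraries. It fell by 1.18 on the log2 scale (SE 0.17, adjusted p = 0.00106, limma), without overlap of the groups.

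Eng (gene 13805, chromosome 2, 32646595 to 32682669, plus strand) encodes endoglin, the co-receptor through which endothelium reads BMP9 and BMP10, and is also made by macrophages and mesenchymal cells. It had 29.2, 36.0 and 35.2 FPKM in NICD2_Pax8 libraries and 56.7, 56.3 and 51.3 FPKM in WT libraries. The groups lay apart, and the log2 fold change was -0.70 (limma SE 0.11, adjusted p = 0.00184). In the GENCODE M21 annotation of GRCm38, 61 of the exonic bases of Eng (1.5%) overlap Fpgs on the opposite strand, and the other 9 genes share no exonic base with another gene.

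The 2 glomerular genes had the same log2 fold change. Emcn (gene 59308, chromosome 3, 137341062 to 137431069, plus strand) encodes endomucin, a sialomucin of the luminal surface that is abundant in glomerular and other capillaries and in veins. It had 25.1, 18.9 and 27.4 FPKM in NICD2_Pax8 libraries and 62.6, 58.5 and 55.7 FPKM in WT libraries. Its log2 fold change was -1.29 (limma SE 0.15, adjusted p = 0.000469). Ehd3 (gene 57440, chromosome 17, 73804841 to 73832093, plus strand), an ATPase of endocytic recycling whose kidney expression is concentrated in glomerular endothelium, had 7.57, 9.56 and 10.8 FPKM in NICD2_Pax8 libraries and 30.3, 20.5 and 22.2 FPKM in WT libraries. Its log2 fold change was also -1.29 (limma SE 0.18, adjusted p = 0.00112), and -1.13 without WT replicate 1. Neither gene overlapped between the groups. Of the other EHD genes 0 fell. Ehd4 stood at 18.7 ± 1.04 FPKM in NICD2_Pax8 and 13.6 ± 1.92 FPKM in WT (SD, n = 3 each), and Ehd1 at 1.44, 19.4 and 24.6 FPKM in NICD2_Pax8 and 29.9 to 37.9 FPKM in WT. Ehd4 rose by limma (log2 fold change 0.43, adjusted p = 0.0214) but not after median-of-ratios scaling (0.10, adjusted p = 0.451), without WT replicate 3 (0.32, adjusted p = 0.0529) or without NICD2_Pax8 replicate 3 (0.39, adjusted p = 0.0809). Ehd1 did not pass (adjusted p = 0.124), but fell without NICD2_Pax8 replicate 1, at -0.60 (adjusted p = 0.0216).

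Plvap (gene 84094, chromosome 8, 71497753 to 71511806, minus strand), the diaphragm protein of peritubular capillaries, was the most abundant of the 10 genes in both groups. It had 35.4, 46.6 and 44.8 FPKM in NICD2_Pax8 libraries and 70.8, 84.8 and 86.5 FPKM in WT libraries. Its log2 fold change was -0.92 (limma SE 0.14, adjusted p = 0.00147), and -1.01 without WT replicate 1, which was the lowest WT library for this gene. WT replicate 1 was instead the highest WT library for 7 of the other genes. Within the NICD2_Pax8 group, replicate 1 was the lowest for 8 of the 10 genes, Emcn was lowest in replicate 2, and Flt1 was equally low in replicates 1 and 2.

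**Figure D2:**
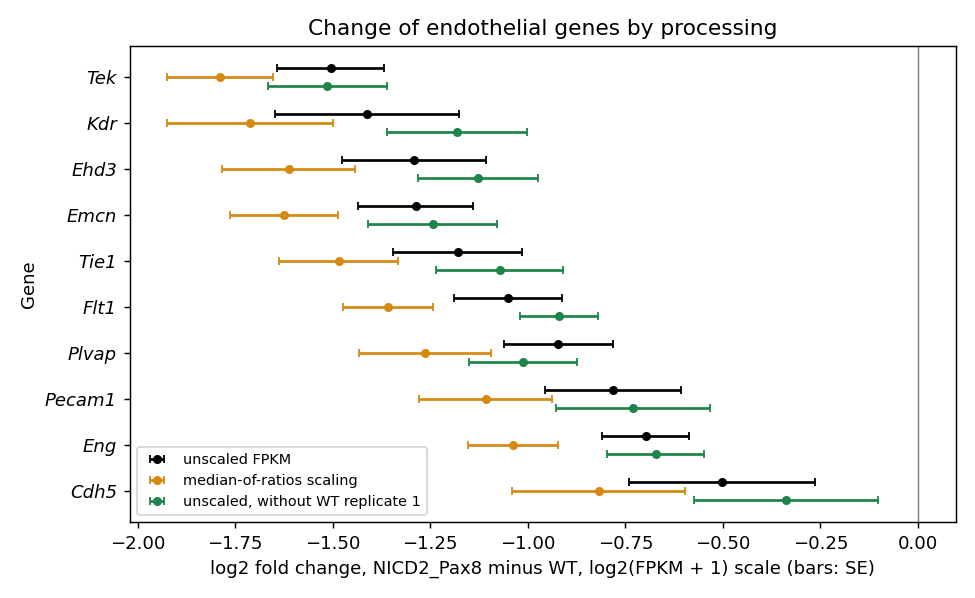
Log2 fold change of each gene (x axis, NICD2_Pax8 minus WT on the log2(FPKM + 1) scale, bars are SE of limma) on unscaled FPKM, after median-of-ratios scaling, and without WT replicate 1. All values are negative, those after scaling lie further from 0, and Tek is the lowest and Cdh5 the highest in each.

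The authors' deposited table, whose q-values are from DESeq2 by the file header, gave all 10 genes as lower in NICD2_Pax8 at q under 0.05, where 21.5% of its 19439 genes with a q were lower. The log2 fold changes in the authors' deposited table ran to -2.14 for Tek and -0.86 for Cdh5 (q = 0.00335). Their median in the authors' deposited table was -1.59, against -0.04 over all its genes.

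The order of the levels changed between the groups. In NICD2_Pax8 kidneys it was Plvap, Eng, Emcn, Pecam1, Cdh5, Ehd3, Flt1, Tie1, Kdr and Tek, with means falling along the row to 2.75 FPKM at Tek and starting at 42.3 FPKM at Plvap. There the libraries of Plvap and Eng overlapped, as did those of Pecam1 and Cdh5, Cdh5 and Ehd3, Flt1 and Tie1, and Tie1 and Kdr. In WT kidneys the order was Plvap, Emcn, Eng, Ehd3, Pecam1, Kdr, Cdh5, Tie1, Flt1 and Tek, with 80.7 FPKM for Plvap and 9.61 FPKM for Tek. There Emcn overlapped Eng, Ehd3 overlapped Pecam1, and Kdr, Cdh5, Tie1 and Flt1, with means of 13.2 to 13.9 FPKM, overlapped along the row. FPKM is a level per transcript length, so these orders compare genes on that scale.

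A ratio of 2 genes within a library is untouched by how the library is scaled, and shows whether they fell to the same degree. The ratio of Tek to Pecam1 was 0.218, 0.228 and 0.194 in NICD2_Pax8 libraries and 0.387, 0.425 and 0.457 in WT libraries. The ratio was lower in every NICD2_Pax8 library than in any WT library, with a log2 difference of -0.99 (SE 0.10). The ratio of Kdr to Pecam1 was 0.337, 0.358 and 0.342 in NICD2_Pax8 and 0.773, 0.492 and 0.542 in WT, a log2 difference of -0.77 (SE 0.20). Without WT replicate 1 these differences were -1.05 and -0.58. Ehd3 and Tie1 also stood lower against Pecam1 in all NICD2_Pax8 libraries than in any WT library, with log2 differences of -0.55 (SE 0.18) and -0.50 (SE 0.12). Emcn and Flt1 differed by -0.50 (SE 0.25) and -0.34 (SE 0.20) with overlap. Plvap, Eng and Cdh5 differed from Pecam1 by -0.11 (SE 0.20), 0.11 (SE 0.12) and 0.28 (SE 0.14), with overlap in each case.

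**Figure D3:**
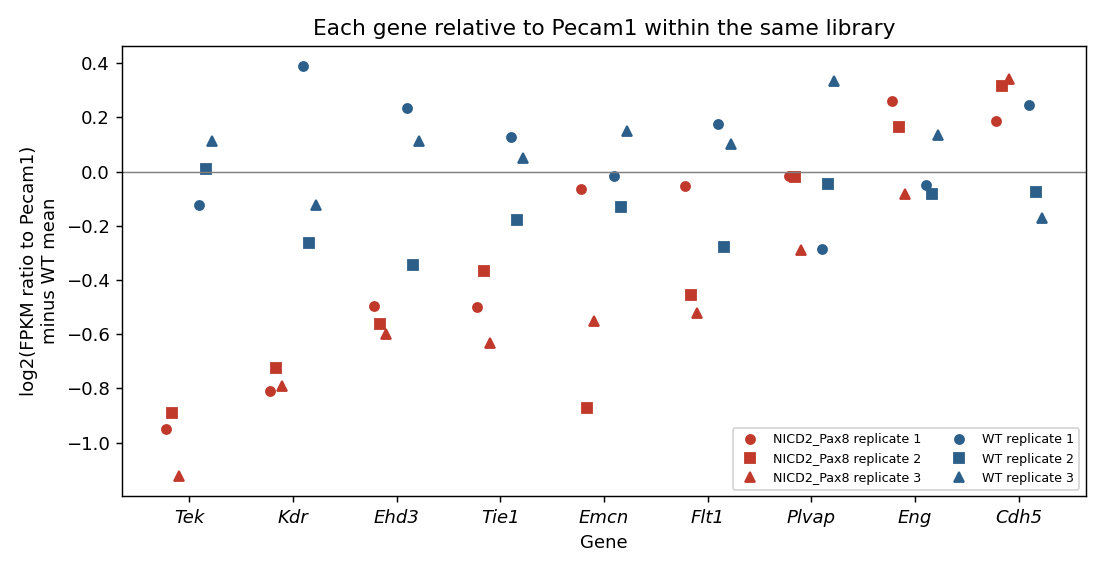
Log2 ratio of each gene to Pecam1 in the same library, with the WT mean set to 0 (y axis), for 9 endothelial genes (x axis), NICD2_Pax8 in red and WT in blue. The groups are separate for Tek, Kdr, Ehd3 and Tie1 and overlap for Emcn, Flt1, Plvap, Eng and Cdh5.

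Between the capillary beds, the ratio of peritubular Plvap to glomerular Ehd3 was 4.68, 4.87 and 4.16 in NICD2_Pax8 and 2.34, 4.13 and 3.91 in WT. The groups were separate, but by a narrow margin, and the log2 difference of 0.44 (SE 0.27) fell to 0.18 without WT replicate 1. The ratio of Plvap to Emcn, the other glomerular gene, was 1.41, 2.46 and 1.64 in NICD2_Pax8 and 1.13, 1.45 and 1.55 in WT and overlapped, with a log2 difference of 0.39 (SE 0.28). The ratio of Ehd3 to Emcn differed by -0.06 (SE 0.25). A different fall of peritubular and glomerular genes was therefore not resolved by these libraries. Among the receptors, Flt1 to Kdr was 1.64, 1.17 and 1.17 in NICD2_Pax8 and 0.840, 0.965 and 1.14 in WT, and Tie1 to Tek was 1.87, 1.97 and 1.93 in NICD2_Pax8 and 1.63, 1.21 and 1.31 in WT. Of the 14 ratios examined, 7 did not overlap between the groups. Each of these 7 had p = 0.1 in a two-sided exact permutation test, the smallest that 3 against 3 libraries can give, and 0.2 after Benjamini-Hochberg adjustment over the 14 ratios.

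The promoters of the 4 genes with the largest falls are shown because these genes moved together. RefSeq promoters of GRCm38.p6, from 250 bases before to 50 bases after the start set for each promoter, were at hand for 7 of the 10 genes (Eng, Emcn, Tek, Tie1, Kdr, Flt1 and Ehd3). They were searched on both strands for ETS cores, written AGGAAG and CCGGAA, because ETS factors are the best known activators of endothelial genes. The sequences below run 5′ to 3′ on the strand of the gene, with ETS cores in capitals.
Tek, chr4:94739039-94739338, plus strand: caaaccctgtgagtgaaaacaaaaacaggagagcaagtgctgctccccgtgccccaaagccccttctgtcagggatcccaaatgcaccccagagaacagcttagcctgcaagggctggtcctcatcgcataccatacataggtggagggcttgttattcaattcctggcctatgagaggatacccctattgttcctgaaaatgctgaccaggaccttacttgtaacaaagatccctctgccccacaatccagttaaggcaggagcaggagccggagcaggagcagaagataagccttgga
Kdr, chr5:75978406-75978705, minus strand: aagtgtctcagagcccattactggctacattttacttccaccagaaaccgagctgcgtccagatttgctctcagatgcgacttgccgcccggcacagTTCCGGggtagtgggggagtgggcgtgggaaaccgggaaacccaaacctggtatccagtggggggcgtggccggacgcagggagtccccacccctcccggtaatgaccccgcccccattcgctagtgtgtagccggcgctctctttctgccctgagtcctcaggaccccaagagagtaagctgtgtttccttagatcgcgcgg
Ehd3, chr17:73804591-73804890, plus strand: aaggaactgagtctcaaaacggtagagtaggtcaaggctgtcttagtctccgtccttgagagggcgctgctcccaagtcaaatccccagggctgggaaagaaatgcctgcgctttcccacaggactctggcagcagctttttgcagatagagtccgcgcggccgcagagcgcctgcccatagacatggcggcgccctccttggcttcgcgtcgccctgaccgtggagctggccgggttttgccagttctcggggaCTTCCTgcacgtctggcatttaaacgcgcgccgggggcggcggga
Emcn, chr3:137340828-137341127, plus strand: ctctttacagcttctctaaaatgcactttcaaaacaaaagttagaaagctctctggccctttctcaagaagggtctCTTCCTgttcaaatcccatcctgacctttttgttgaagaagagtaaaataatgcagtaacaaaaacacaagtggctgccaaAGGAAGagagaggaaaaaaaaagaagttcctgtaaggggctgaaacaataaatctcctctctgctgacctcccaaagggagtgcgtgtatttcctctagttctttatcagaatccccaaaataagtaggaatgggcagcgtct
An ETS core in either of these spellings was found in 6 of the 7 promoters, all but that of Tek, and in 45.2% of all 32851 promoters of the same length. The Tek promoter does hold the shorter letters GGAA on the reverse strand, which were not counted. Of the letters TGGGAA, the core bound by RBPJ, through which Notch acts on DNA, matches were found in Kdr, Ehd3 and Tie1, against 25.6% of all promoters. The GATA core AGATAA was found in Tek, against 11.2% of all promoters. The ETS and RBPJ strings all contain the letters GGAA, but the letter before them differs, so 1 stretch cannot match more than 1 string at the same GGAA. For Tek, Kdr, Emcn and Flt1 the start set for the promoter lies inside the deposited interval of the gene and not at its 5′ edge. These are matches of letters in short windows and are not binding sites.

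Further genes of endothelium in general fell with the 10 genes. Of 19 tested, 15 fell and 1 rose, with a median log2 fold change of -0.59 (over all genes, 16.2% fell and 45.1% rose). Of the 15, Clec14a and She reached 1 FPKM in at most 1 NICD2_Pax8 library and so passed the filter through the WT libraries, where they were high. With 1 library left out, 10 to 14 of the 18 or 19 genes then tested fell, where 1625 to 2062 of all 12844 to 13223 genes fell. Ptprb, the phosphatase that restrains Tie2 and VE-cadherin, had 2.35 ± 0.196 FPKM in NICD2_Pax8 and 7.48 ± 0.336 FPKM in WT (SD, n = 3 each; log2 fold change -1.34, limma adjusted p = 0.000134). Arhgef15 fell by 1.27 on the log2 scale (limma adjusted p = 0.00067) and Tm4sf1, a membrane protein of endothelium and other cells, by 0.43 (adjusted p = 0.0305). Tm4sf1 did not pass once any 1 of the NICD2_Pax8 libraries was left out (adjusted p of 0.0649 to 0.0814). Some endothelial genes did not pass or rose. Egfl7, a secreted endothelial protein, was at 21.5 ± 2.17 FPKM in NICD2_Pax8 and 21.5 ± 1.87 FPKM in WT (SD, n = 3 each). It passed as lower with quantile normalization alone (-0.32, limma adjusted p = 0.0484), where 18 of the 19 genes fell. Esam, a junction protein of endothelium and platelets, was at 17.0 ± 3.14 FPKM in NICD2_Pax8 and 16.7 ± 1.53 FPKM in WT (SD, n = 3 each). Ecscr, a small endothelial membrane protein, was the 1 that rose, to 17.8 ± 2.35 FPKM in NICD2_Pax8 against 5.93 ± 1.63 FPKM in WT (SD, n = 3 each; limma adjusted p = 0.00101).

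Of 15 transcription factors of endothelium tested, 5 fell and 3 rose, with a median log2 fold change of -0.18 (over all genes, 16.2% fell and 45.1% rose). After median-of-ratios scaling 8 fell and 2 rose, where 25.8% of all genes fell and 3897 of 13500 rose. Sox17, a factor of arterial endothelium, had 1.22, 1.62 and 1.32 FPKM in NICD2_Pax8 libraries and 4.41, 4.76 and 4.54 FPKM in WT libraries (log2 fold change -1.23, limma adjusted p = 0.000265). Klf2, which is induced by blood flow, had 9.17, 12.9 and 10 FPKM in NICD2_Pax8 and 28.4, 27.4 and 29.3 FPKM in WT. Both genes were separated widely, with little spread within WT. Erg, an ETS factor that maintains endothelial identity, fell by 0.76 on the log2 scale (limma adjusted p = 0.00519), Sox18 by 0.83 (adjusted p = 0.00265) and Epas1, the hypoxia-responsive factor HIF-2α, by 0.80 (adjusted p = 0.00311). Gata2 rose by 1.35 (adjusted p = 0.000174). Other ETS factors of the list did not fall with Erg in the unscaled fit. Ets2 rose by 0.84 (limma adjusted p = 0.00103) and Ets1 by 0.46 (adjusted p = 0.0154), and Fli1 did not pass (adjusted p = 0.399).

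In the VEGF system the ligand Vegfa fell with the receptors Kdr and Flt1. Vegfb, Vegfc, Vegfd, Nrp1 and the receptor Flt4 did not pass on unscaled FPKM of all libraries. Vegfa stood at 45.9, 42.5 and 36.9 FPKM in NICD2_Pax8 libraries and at 151.7, 95.3 and 91.3 FPKM in WT libraries, a log2 fold change of -1.38 (limma SE 0.21, adjusted p = 0.00141). The groups lay apart, with WT replicate 1 the highest. Pgf, the placental growth factor that binds Flt1, was higher at 1.87, 3.1 and 3.25 FPKM in NICD2_Pax8 against 0.9, 0.48 and 0.35 FPKM in WT (log2 fold change 1.24, limma adjusted p = 0.00238). It passed the filter through the NICD2_Pax8 libraries alone. The co-receptor Nrp2 rose by 1.18 (limma adjusted p = 0.00156). Nrp1, the co-receptor of Kdr, was at 17.4 ± 2.28 FPKM in NICD2_Pax8 and 18.5 ± 5.29 FPKM in WT, and the lymphatic ligand Vegfc at 1.74 ± 0.168 FPKM in NICD2_Pax8 and 2.09 ± 0.42 FPKM in WT (SD, n = 3 each). Vegfc passed as lower with quantile normalization alone (-0.51, limma adjusted p = 0.0355). Of the 10 tested ligands and receptors, 3 fell and 2 rose, where 16.2% of all genes fell and 45.1% rose. After median-of-ratios scaling 5 fell and 2 rose, where 25.8% of all genes fell and 3897 of 13500 rose.

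In the angiopoietin system 4 of 6 tested genes fell and 0 rose by limma, also at an unadjusted p under 0.05. Over all genes tested 16.2% fell and 45.1% rose. Tie1 and Tek belong to the endothelial genes chosen by symbol and were already counted there. Of the other 4 tested genes of this system 2 fell, and the median log2 fold change of these 4 was -0.44. Angpt1, the activating ligand of Tie2 made by cells around the vessel, had 1.8, 1.35 and 1.77 FPKM in NICD2_Pax8 and 4.07, 5.02 and 3.63 FPKM in WT, without overlap (log2 fold change -0.98, limma adjusted p = 0.00142). Angpt2, which endothelial cells release and which can oppose Angpt1, had 2.32, 2.09 and 2.17 FPKM in NICD2_Pax8 and 1.04, 2.57 and 0.68 FPKM in WT, with overlap (adjusted p = 0.178). Without WT replicate 2 Angpt2 passed as higher, with a log2 fold change of 0.79 (adjusted p = 0.0106). Tie1, Tek and Ptprb, described above, are the other genes of this system that fell.

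In the endoglin branch 2 of 11 tested genes fell and 5 rose, shares near the 16.2% and 45.1% of all genes tested. Acvrl1, the BMP9 receptor ALK1 that pairs with endoglin, fell with Eng, to 4.52 ± 0.683 FPKM in NICD2_Pax8 against 7.89 ± 0.562 FPKM in WT (SD, n = 3 each; limma adjusted p = 0.0037). The target genes Id1 and Id3 were 3.73 and 3.77 times as high in NICD2_Pax8 as in WT (limma adjusted p = 0.000122 and 0.000158), and the inhibitor Smad7 rose by 1.17 on the log2 scale (adjusted p = 0.000447). Id2, the most abundant gene of this list, was at 173.8 ± 15.7 FPKM in NICD2_Pax8 and 167.5 ± 56.3 FPKM in WT (SD, n = 3 each). These targets are active in many cell types of the kidney.

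**Figure D4:**
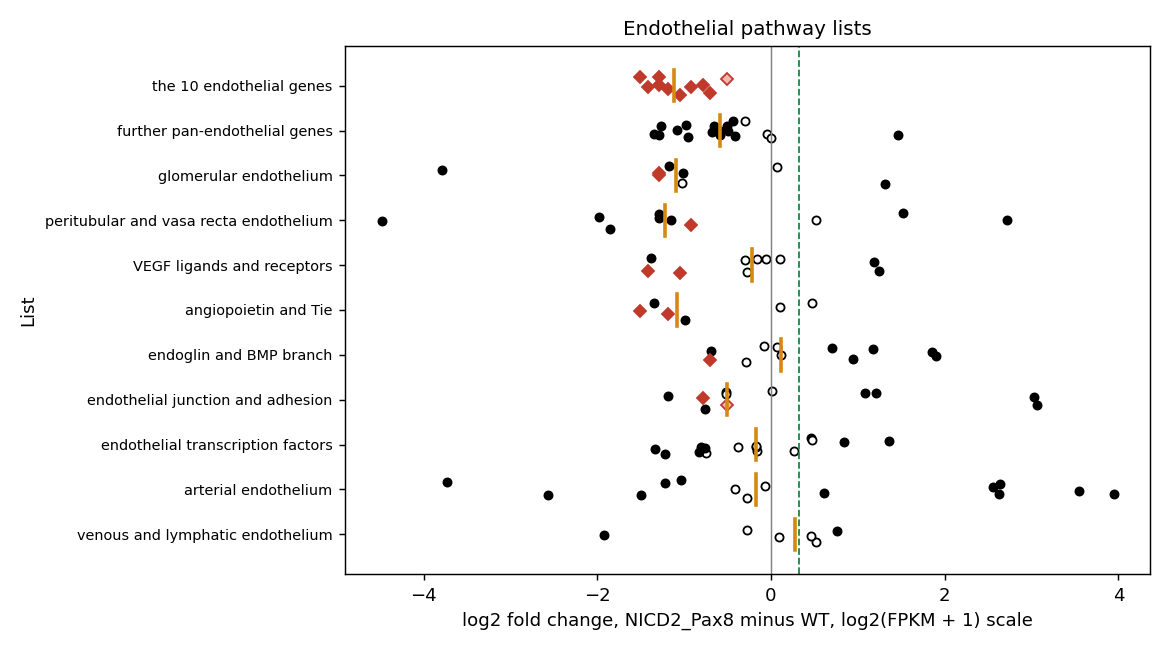
Log2 fold change (x axis, NICD2_Pax8 minus WT, log2(FPKM + 1) scale) of the tested genes of each list (y axis). Diamonds are the 10 endothelial genes and circles other genes, filled where the adjusted p was under 0.05 and pale or open otherwise. Orange bars are list medians and the dashed green line is the median of all genes tested, 0.32. The 10 genes and the further pan-endothelial genes lie mostly below 0, whereas the arterial and junction lists spread to both sides.

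Among junction and adhesion genes 3 of 11 fell and 4 rose, where 16.2% of all genes fell and 45.1% rose. After median-of-ratios scaling 6 fell and 3 rose, where 25.8% of all genes fell and 3897 of 13500 rose. Of the 4 that rose without scaling, Icam1, Vcam1 and F11r are also made by epithelium or leukocytes. The other, Mcam, stood at 19.8 ± 0.806 FPKM in NICD2_Pax8 and 9.68 ± 5.51 FPKM in WT (SD, n = 3 each; limma adjusted p = 0.0263). Mcam had the largest adjusted p of the 4. With 1 library left out 3 or 4 genes of the list rose, where 4604 to 6644 of all 12844 to 13223 genes rose. Icam1 was 9.42 and Vcam1 9.07 times as high in NICD2_Pax8 as in WT (limma adjusted p = 3.2e-05 and 5.4e-05), and F11r, a tight junction protein of epithelium and endothelium, had 89.5 ± 5.21 FPKM in NICD2_Pax8 and 38.0 ± 2.93 FPKM in WT (SD, n = 3 each). Cd34, a surface protein of capillary endothelium, was at 11.2 ± 2.49 FPKM in NICD2_Pax8 and 16.4 ± 3.64 FPKM in WT and did not pass (adjusted p = 0.0781), but fell without WT replicate 3, at -0.70 (adjusted p = 0.0291). Cd34 also fell with all 3 scalings, at -0.84 with median-of-ratios scaling (adjusted p of 0.0109 to 0.0158 by limma over the 3), and with that scaling without WT replicate 1 (adjusted p = 0.0325). Without WT replicate 3 and unscaled, 6 of the 11 genes fell, as did 1782 of all 13223 genes tested there. Podxl, shared by podocytes and endothelium, had 15.1, 19.9 and 17.4 FPKM in NICD2_Pax8 and 41.1, 42.6 and 38.4 FPKM in WT, and fell by 1.18 on the log2 scale (limma adjusted p = 0.00031).

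Beyond Ehd3 and Emcn, 3 of the 6 other tested genes of the glomerular endothelium list fell and 1 rose. Over all genes tested 16.2% fell and 45.1% rose. Mapt, tau, fell by 1.17 on the log2 scale (limma adjusted p = 0.000866) and Lpl, lipoprotein lipase, by 3.79 (adjusted p = 0.000296). Lpl is also abundant in fat and tubules and stood highest in WT replicate 1, at 406.7 FPKM. Plat, tissue plasminogen activator, was higher, at 68.8 ± 11.6 FPKM in NICD2_Pax8 and 26.9 ± 2.46 FPKM in WT (SD, n = 3 each). Beyond Plvap, 6 of the 9 other tested genes of the peritubular and vasa recta list fell and 2 rose, beside the same shares of all genes. Of these 6, Npr3 passed the filter through the WT libraries alone. Igfbp3, a growth factor carrier of peritubular capillaries, had 27.9, 38.5 and 41.0 FPKM in NICD2_Pax8 and 136.7, 137.7 and 154 FPKM in WT (log2 fold change -1.98, limma adjusted p = 0.000126). Cd36, the fatty acid receptor of capillaries and of other cells, fell to 2.66, 15 and 5.56 FPKM in NICD2_Pax8, against 180.8, 194 and 119.7 FPKM in WT. Aqp1, which descending vasa recta share with proximal tubules, fell by 1.15 on the log2 scale (adjusted p = 0.0264), and did not pass without WT replicate 2 or 3 (adjusted p = 0.0829 and 0.0762). Cav1, the coat protein of caveolae in endothelium and many other cells, rose to 356.7, 250.3 and 264.6 FPKM in NICD2_Pax8, against 81.0, 41.7 and 22.9 FPKM in WT. It was 5.99 times as high in NICD2_Pax8 as in WT, or 8.99 times without WT replicate 1.

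Of 14 tested genes of arterial endothelium 5 fell and 6 rose, where 16.2% of all genes fell and 45.1% rose, so the share that rose is near that of all genes. Of the 6, Hey1 passed the filter through the NICD2_Pax8 libraries, where it was high. Notch4, the Notch receptor most restricted to endothelium, had 1.35, 1.85 and 1.85 FPKM in NICD2_Pax8 and 3.94, 4.74 and 4.76 FPKM in WT, a log2 fold change of -1.03 (limma adjusted p = 0.000861). Dll4, the Notch ligand of arterial tip cells, had 2.73, 2.34 and 1.9 FPKM in NICD2_Pax8 and 4.2, 1.66 and 3.65 FPKM in WT and did not pass (adjusted p = 0.395), but fell without WT replicate 2, at -0.57 (adjusted p = 0.0344). Jag1 and Notch1, which tubule cells can also make, were 19.9 and 14.4 times as high in NICD2_Pax8 as in WT. Alpl, which proximal tubules share, was at 16.2 ± 8.65 FPKM in NICD2_Pax8 and 208.6 ± 15.8 FPKM in WT (SD, n = 3 each). Of the venous and lymphatic list 6 genes could be tested, of which 1 fell and 1 rose. Ccl21a, a chemokine of lymphatic endothelium, had 1.06, 1.91 and 0.82 FPKM in NICD2_Pax8 and 7.01, 7.28 and 7.86 FPKM in WT (log2 fold change -1.92, limma adjusted p = 0.000273), Ephb4, a venous receptor, rose by 0.77 (adjusted p = 0.000539), and the venous factor Nr2f2 was at 23.5 ± 3.14 FPKM in NICD2_Pax8 and 21.9 ± 1.37 FPKM in WT (SD, n = 3 each). Ccl21a has near-identical copies in the mouse genome, so the split of its reads between them is uncertain.

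Markers of other cells and of blood moved beside the endothelial genes. Their counts stand against 16.2% of all genes that fell and 45.1% that rose. Of 9 tested podocyte genes 7 fell and 2 rose, and the list summed to 74.9 to 82.1 FPKM in NICD2_Pax8 libraries and 111.9 to 135.5 FPKM in WT libraries. Nphs1, nephrin, stood at 0.83, 1.29 and 1.4 FPKM in NICD2_Pax8 and at 5.29, 6.17 and 5.76 FPKM in WT, and the cell cycle inhibitor Cdkn1c fell by 1.75 on the log2 scale (limma adjusted p = 0.000282). All 6 tested genes of the red blood cell list fell (limma adjusted p of 0.000948 to 0.0149). Alas2 and Slc4a1 passed the filter through the WT libraries alone or nearly so. The list summed to 70.8 to 140.8 FPKM in NICD2_Pax8 and 519.5 to 2438 FPKM in WT. The most abundant gene of the list, the globin Hbb-bs, had 32.4, 27.3 and 55.6 FPKM in NICD2_Pax8 and 980.4, 190.9 and 431.4 FPKM in WT. The WT mean of Hbb-bs was 13.9 times that of NICD2_Pax8, or 8.1 times without WT replicate 1. Hba-a2, another globin, averaged 20.9 ± 5.3 FPKM in NICD2_Pax8 and 313.9 ± 210.9 FPKM in WT (SD, n = 3 each). The membrane protein Slc4a1 averaged 0.75 ± 0.466 FPKM in NICD2_Pax8 and 6.95 ± 2.41 FPKM in WT (SD, n = 3 each). Its WT libraries had 8.94, 7.63 and 4.27 FPKM, an order unlike that of Hbb-bs, so Slc4a1 is not read here as blood alone. For Hba-a2 the ratio of the WT to the NICD2_Pax8 mean was 15.01, or 9.63 without WT replicate 1. Globin genes have near-identical copies, so values of single ones are uncertain. Of 8 tested macrophage and platelet genes 6 rose and 0 fell by limma, with 0 lower at an unadjusted p under 0.05, with sums of 437.2 to 535 FPKM in NICD2_Pax8 and 103 to 289.3 FPKM in WT. Cx3cr1 and C1qb, of macrophages, were 3.1 and 2.79 times as high in NICD2_Pax8 as in WT, and Lyz2 3.39 times, or 7.63 times without WT replicate 1. Csf1r and Adgre1, also of macrophages, did not pass (limma adjusted p = 0.751 and 0.389). Csf1r stood at 17.33 ± 3.32 FPKM in NICD2_Pax8 and 16.45 ± 4.63 FPKM in WT (SD, n = 3 each). Adgre1 stood at 6.53 ± 0.966 FPKM in NICD2_Pax8 and 5.32 ± 4.91 FPKM in WT. Without WT replicate 1, 7 of the 8 genes rose, as did 6644 of all 13182 genes tested there. Lyz2 did not pass without replicate 2 of either group (adjusted p of 0.0566 to 0.0599). Some of these cells also express Pecam1 and Eng. Among 12 pericyte and mesangial genes 5 rose, a share near the 45.1% of all genes, and 4 fell. Acta2 was 4.67, Tagln 3.57 and Cspg4 2.64 times as high in NICD2_Pax8 as in WT. Ren1, Pdgfra, Angpt1 and Itga8 were lower, with log2 fold changes of -2.01, -1.06, -0.98 and -0.40, and Pdgfrb, Des and Myh11 did not pass. Of 11 tested genes of kidney epithelium 6 fell and 4 rose. Slc34a1 of the proximal tubule and Slc12a3 of the distal tubule fell by 4.26 and 2.80 on the log2 scale. The epithelial cadherin Cdh1 rose by 1.97, and Pax2, Pax8 and Epcam also rose. Umod did not pass (limma adjusted p = 0.455), at 1346 ± 338.9 FPKM in NICD2_Pax8 and 1118 ± 425.5 FPKM in WT (SD, n = 3 each). The part of blood content and of these cells in the endothelial result was not tested.

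**Figure D5:**
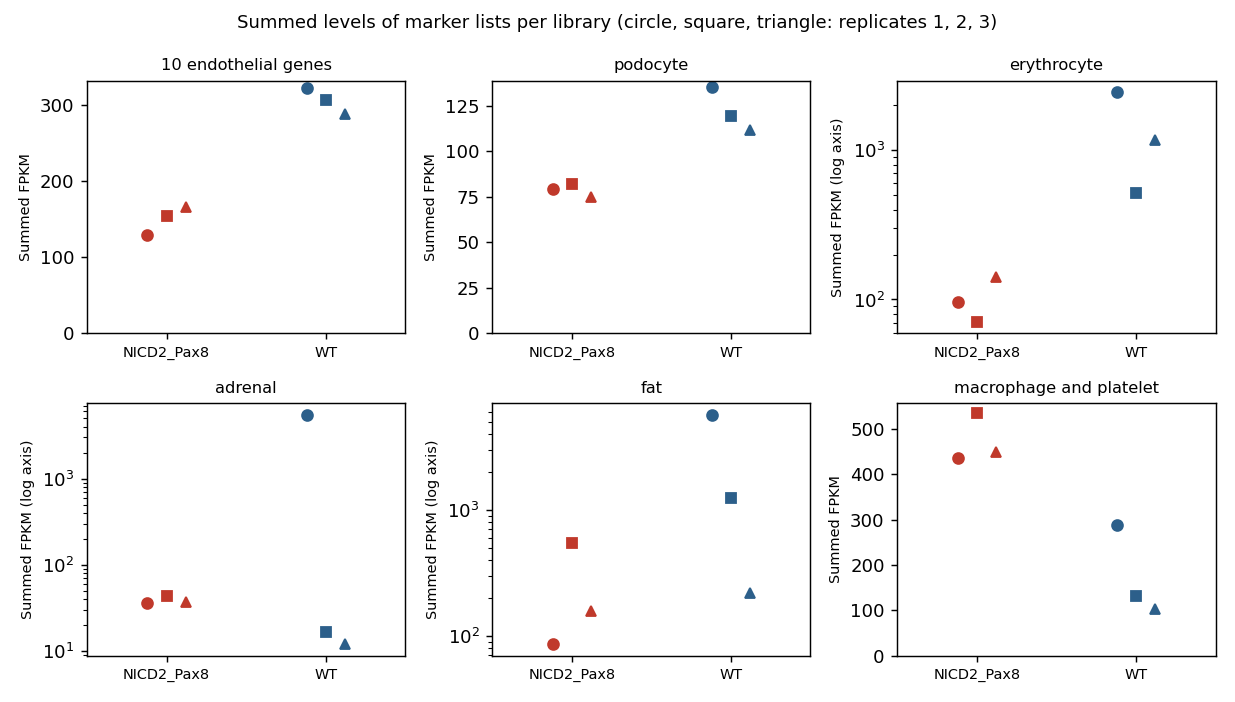
Summed FPKM (y axis; log axis for erythrocyte, adrenal and fat genes) of 6 gene lists in each library, NICD2_Pax8 in red on the left and WT in blue on the right, with replicates 1 to 3 as circle, square and triangle. The 10 endothelial genes sum to 129.6 to 165.6 FPKM in NICD2_Pax8 and 288.3 to 321.7 FPKM in WT, podocyte and erythrocyte genes are lower in NICD2_Pax8, and adrenal and fat genes are highest in WT replicate 1.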

How the data were processed

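The deposited table gives FPKM per library, made by the authors, per the file headers. It also gives the authors' group means, a log2 fold change, p-values, and q-values whose header alone names DESeq2, per the file headers. Its comparisons of single pairs of libraries were not used. Bowtie 0.12.2 and mm8 are listed in the submitters' processing notes. The positions match a later build: of 22002 gene identifiers matched to RefSeq of GRCm38.p6, 19406 (88.2%) had the same start and end, as had 9 of the 10 endothelial genes (the end of Tek differs), so coordinates are the file's and were read as GRCm38. The quantification tool is not given in the sources used here. The genes and lists were chosen with earlier results of these data known.

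Of 23873 rows, 4370 without values were left out. The 13500 genes that reached 1 FPKM in 3 or more libraries were fitted with limma 3.58.1 (mean-variance trend, R 4.3.3) on log2(FPKM + 1) with genotype as the only term, two-sided, with Benjamini-Hochberg adjustment over all of them. Log2 fold changes are NICD2_Pax8 minus WT on that scale, which understates changes of low genes. Errors on FPKM are SD over 3 libraries. The fit was tested on simulated data. Depth came from the spacing of low FPKM values of single-transcript genes (500 to 1500 bases), where 71.5% to 78.7% of values up to 8 fragments lay within 0.15 of a whole number. Besides the 10 genes, Vegfa, Vegfc, Angpt1, Angpt2, Nrp1, Dll4 and Notch4 and, from each list, the most abundant gene and the 2 of smallest p were named. Another 13 genes were chosen after their values were seen (Pgf, Nrp2, Klf2, Erg, Sox18, Esam, Egfl7, Ecscr, Cd34, Acvrl1, Cav1, Mapt and Smad7), as were Clec14a, She, Npr3, Alas2 and Hey1, named for the filter only. Mcam, Ets1, Ets2, Fli1, Ren1, Pdgfra, Itga8, Pdgfrb, Des, Myh11, Vegfb, Vegfd and Flt4 were also named after their values were seen. So were Csf1r, Adgre1, Gpihbp1, Umod, Pax2, Pax8 and Epcam. Genes in 2 lists count in both. Alternatives were other pseudocounts, no filter, 3 scalings, a replicate block, each library left out and an adjusted p of 0.01.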

Additional observations from a re-analysis of the deposited data

How the results depend on the processing

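The count of endothelial genes that fell was 9, or 10 after median-of-ratios scaling (also without WT replicate 1), upper quartile scaling and quantile normalization. It was between 9 and 10 with each library left out, where 1625 to 2062 of all 12844 to 13223 genes fell. No endothelial gene changed direction under any alternative listed in the methods. Their median log2 fold change of -1.12 became -0.84 with a pseudocount of 5, -1.42 with median-of-ratios scaling, -1.41 with that scaling without WT replicate 1, -1.40 with upper quartile scaling and -1.46 with quantile normalization. Of all genes tested, 6095 rose and 2190 fell (73.6% of calls higher), against 3897 and 3486 (52.8%) with median-of-ratios scaling, 3993 and 3387 with upper quartile scaling, and 3866 and 3558 with quantile normalization. Some list genes without a call changed sign. Nr2f2 went to -0.24, -0.21 and -0.21 with median-of-ratios, upper quartile and quantile scaling and -0.32 with the first without WT replicate 1. Esam went to -0.32, -0.29, -0.35 and -0.33 under the same 4, and to between -0.079 and 0.17 with 1 library left out. Id2 went to -0.23 and -0.21 with median-of-ratios and upper quartile scaling, to -0.077 with the first without WT replicate 1, and to between -0.20 and 0.31 with 1 library left out. With 1 library left out Nrp1 lay between -0.23 and 0.15 and Egfl7 between -0.071 and 0.081. The cause was not tested. At an adjusted p of 0.01 the further pan-endothelial genes that fell were 8 of 19. The share of all genes that fell at that threshold cannot exceed the 16.2% at 0.05. The same-numbered libraries deviated with correlations of 0.10, -0.05 and 0.01, so the replicate numbers are not taken to pair them; with the replicate block 9 endothelial genes still fell and 5818 and 2164 of all genes rose and fell. The FPKM table gives no counts, and the depth is an estimate.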
